A study of Mus musculus with 2 samples.

Results

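The glutathione transferases and the UDP-glucuronosyltransferases are the 2 large enzyme families that attach a polar group to drugs, hormones, bile pigments and reactive lipids in the liver. They were read here as the gene probes whose RefSeq transcript maps to a symbol beginning with Gsta, Gstk, Gstm, Gsto, Gstp, Gstt, Gstz or Mgst (glutathione transferases) or with Ugt1, Ugt2 or Ugt3 (UDP-glucuronosyltransferases). The rule found 38 genes, 24 glutathione transferases and 14 UDP-glucuronosyltransferases, on 55 probes, out of 20652 genes named on the array. The rule used names only and no measured value.

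The Ad-378 pool was liver of male mice that received an adenovirus carrying miR-378, and the Ad-Ctrl pool was liver of male mice that received a control adenovirus. Both injections were 1e9 plaque forming units into the tail vein of mice aged 8 weeks, so virus exposure is shared. The labels give no strain. Livers of 5 mice were pooled in each group and read on 1 Agilent 1-colour array per pool. With a single array on each side nothing could be tested, and all differences below describe these 2 pools. The protocols place collection at 2 weeks after injection in both groups, while the Ad-378 sample is elsewhere described at 3 weeks, which could not be settled. The study's title names thyroid hormone, bile acid synthesis and cholesterol as the biology around miR-378.

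Glutathione transferases join the tripeptide glutathione to electrophiles. The cytosolic classes (alpha, mu, pi, theta, omega, zeta) act as dimers, kappa sits in mitochondria and peroxisomes, and the Mgst enzymes are unrelated membrane proteins with a similar activity. UDP-glucuronosyltransferases lie in the endoplasmic reticulum and transfer glucuronic acid from UDP-glucuronate to lipophilic molecules such as bilirubin, steroids, bile acids and phenols. Many genes of both families are known targets of the transcription factor Nrf2 and of the receptors CAR, PXR and AhR, and several are expressed at different levels in male and female mouse liver.

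Of 43020 gene spots, 28262 in the Ad-378 pool and 27161 in the Ad-Ctrl pool were well above background, and none was saturated. Signals below are the processed signal divided by the 75th percentile of the same array (695 in Ad-378 and 800 in Ad-Ctrl), here called the scaled signal, and each gene is read from the brightest of its probes that were well above background in both pools. Differences are log2, Ad-378 minus Ad-Ctrl. Probes bind with different strength, so a level compares the 2 pools for 1 gene and does not rank genes. Beside a difference stands the scanner error, the deposited error of the spot on both arrays, which covers measurement on the array only. It was 0.20 log2 units at the median gene and nearly the same for bright and dim members (0.20 for Gstm3, 0.21 for Mgst2). The 95% range from it reaches about 0.40 to each side at the median gene. It is therefore not read as a spread measured for each gene. Hepatocyte markers were present, 11 of the 12 listed being well above background in both pools, with a median difference of 0.22 that turned to -0.003 under lowess normalization (a curve fitted through the difference against signal). Over all genes, 46.1% of differences were negative and 53.9% positive. The listed markers of dividing cells had less signal in the Ad-378 pool (median -2.25, 9 of 9 lower). Less signal was also found for Kupffer cells and macrophages (-0.89, 8 of 8 lower at the brightest probe, with another Csf1r probe at 0.36). Stellate cells and fibroblasts were lower too (-0.93, 10 of 10 lower). Summed scaled signals were 5.62 in Ad-378 and 20.6 in Ad-Ctrl for dividing cells, 52.4 in Ad-378 and 100.1 in Ad-Ctrl for macrophages, and 39.7 in Ad-378 and 78.7 in Ad-Ctrl for stellate cells. Cholangiocyte markers were higher in the Ad-378 pool (median 0.67, 5 of 6 positive, sums 8.47 in Ad-378 and 3.76 in Ad-Ctrl). Those of B and plasma cells were higher as well (0.57, 5 of 5, sums 1.12 in Ad-378 and 0.592 in Ad-Ctrl). Such sums are weighted to their brightest markers and do not measure amounts of cells. Spp1 alone gave 7.19 in Ad-378 and 2.93 in Ad-Ctrl of the cholangiocyte sums. Sinusoidal endothelium stood at a median of -0.21 (8 of 9 lower, sums 51.2 in Ad-378 and 61.4 in Ad-Ctrl). T and NK cells stood at -0.46 (5 of 8 lower), with nearly equal sums of 12.3 in Ad-378 and 12.4 in Ad-Ctrl. On the matrix values the medians were 0.49 for cholangiocytes, 0.36 for B and plasma cells and -0.31 for T and NK cells. After normexp they were 0.48 for cholangiocytes, 0.32 for B and plasma cells and -0.23 for T and NK cells. The part of these cell types in the values of the enzyme genes was not tested, and in whole liver RNA fewer cells of a type and less RNA per cell cannot be told apart.

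As reported, the members beyond 2-fold lay in opposite directions in the 2 families. The families as wholes did not, since 11 of the 22 glutathione transferases had a positive and 11 a negative difference. For the UDP-glucuronosyltransferases the single direction beyond 2-fold did not hold under quantile or lowess normalization, where Ugt1a10 was 2-fold lower. Among glutathione transferases the genes beyond 2-fold were all lower in the Ad-378 pool, namely Gstm3, Gstp3, Gstm2, Mgst3, Gstt3 and, on 1 of its 2 probes, Gstm4. Among UDP-glucuronosyltransferases the genes beyond 2-fold were both higher there, namely Ugt3a1 and Ugt3a2. A level on both arrays could be set for 35 of the 38 genes. Of 22 glutathione transferases, 6 (27.3%) were lower by 2-fold or more and 0 were higher by as much. Of 13 UDP-glucuronosyltransferases, 2 (15.4%) were higher by 2-fold or more and 0 were lower by as much. This count was 2 higher and 1 lower under quantile normalization and 1 higher and 1 lower under lowess. It was 1 higher with the mean over probes, the deposited matrix values, the normexp background correction or each gene's probe of smallest difference. Over all 14288 genes with a level on both arrays, 4.51% were at least 2-fold lower in Ad-378, 2.83% at least 2-fold higher, and 7.35% apart in either direction. With 2 and 6 genes behind them and no replicate, these shares describe this pair of pools.

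The remaining 16 glutathione transferases did not fill the range evenly. Including those beyond 2-fold, 10 of the 22 were at least 1.5-fold lower in Ad-378 and 0 at least 1.5-fold higher, against 12% and 8.79% of all genes. The next after those 10 was Gsta3 at -0.04, and the other 11 lay between 0.10 and 0.55. The median over the family was therefore near 0, at 0.03, against 0.04 over all genes, and its sign turned under quantile normalization (-0.12), lowess (-0.16) and the 75th percentile of detected probes (-0.01). For the UDP-glucuronosyltransferases the median was 0.17, and it was 0.005 under quantile normalization and -0.007 under lowess.

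**Figure D1:**
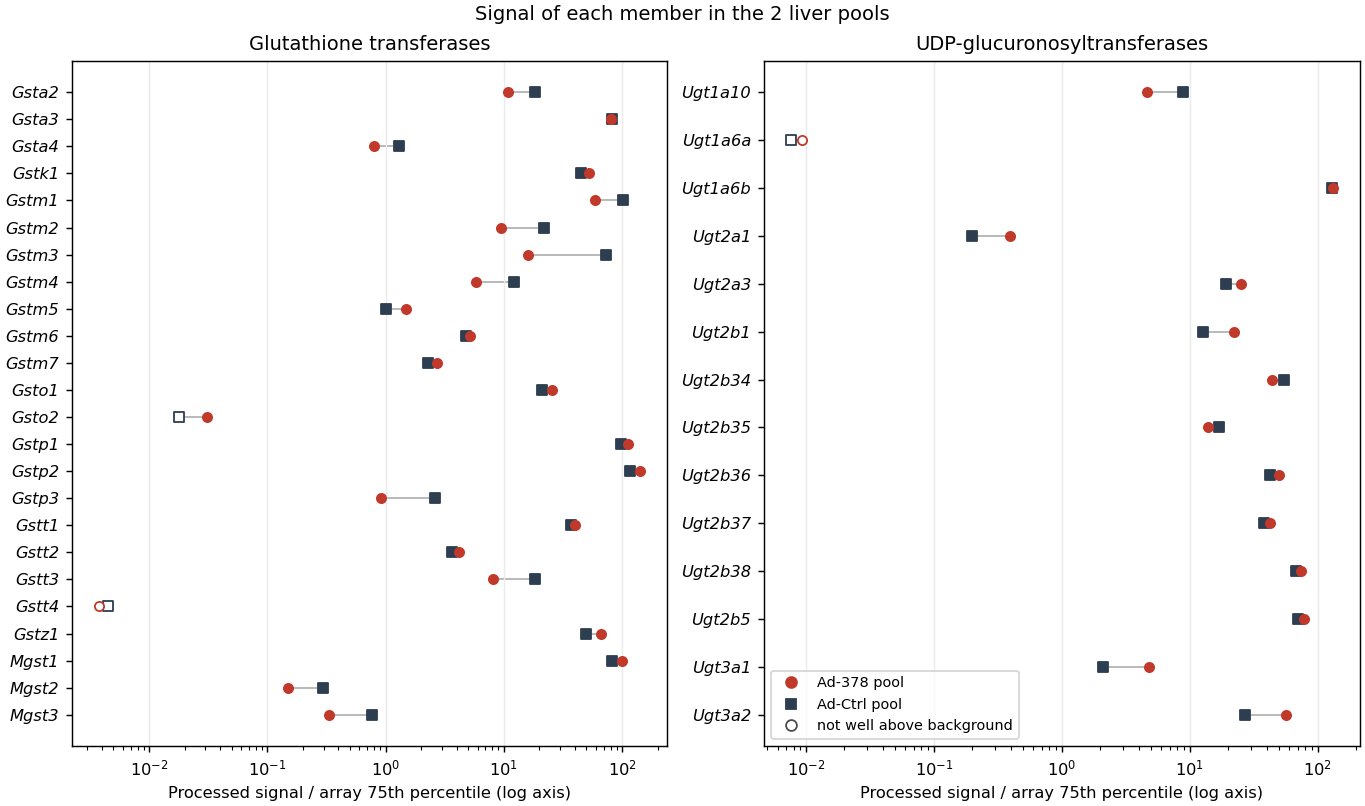
Scaled signal (processed signal over the array's 75th percentile, log axis) of each member, with glutathione transferases on the left and UDP-glucuronosyltransferases on the right. Red circles are the Ad-378 pool, dark squares the Ad-Ctrl pool, 1 array each, and open symbols mark a probe not well above background. The widest gap among those measured in both pools is Gstm3, at 16.1 in Ad-378 and 73.5 in Ad-Ctrl. The signal of different genes depends on their probes and is not to be ranked.

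The mu class held 3 of the 6 glutathione transferases beyond 2-fold. It has 7 genes in 1 uninterrupted cluster on chromosome 3, and in the order of the reference annotation these are Gstm5, Gstm7, Gstm6, Gstm3, Gstm2, Gstm1 and Gstm4. The 4 adjacent genes at 1 end, Gstm3 to Gstm4, were lower in the Ad-378 pool at their brightest probe, and the 3 at the other end were not. Gstm3, a mu enzyme known as responsive to Nrf2 in mouse liver, had a scaled signal of 16.1 in Ad-378 and 73.5 in Ad-Ctrl. That is a log2 difference of -2.19 (scanner error 0.20), or 4.56-fold less, and its second probe gave 10.0 in Ad-378 and 26.3 in Ad-Ctrl, a difference of -1.39. Both probes were thus beyond 2-fold, though they were 0.80 log2 units apart.

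Gstm2 had 9.40 in Ad-378 and 21.8 in Ad-Ctrl, a difference of -1.22. Its 3 probes lay between -1.31 and -1.13, so each of them alone was beyond 2-fold. Gstm1, a major mu enzyme of mouse liver, had 59.1 in Ad-378 and 102 in Ad-Ctrl, a difference of -0.79, and its other probe gave -0.90. It stayed inside 2-fold on both probes.

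Gstm4 was the one member whose probes contradicted each other by more than 2-fold. The brighter probe had 5.87 in Ad-378 and 12.3 in Ad-Ctrl (-1.06), and the dimmer had 1.41 in Ad-378 and 1.02 in Ad-Ctrl (0.47). Averaged, they gave -0.30. The mu genes are close relatives in sequence, and the probe sequences were not used here, so which transcripts each probe binds was not tested.

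The other end of the cluster was level or slightly higher in Ad-378. Gstm5 had 1.49 in Ad-378 and 1.02 in Ad-Ctrl, a difference of 0.55. Gstm6 had 5.15 in Ad-378 and 4.77 in Ad-Ctrl (0.11), with all 3 probes between 0.11 and 0.31. Gstm7 was printed in 10 spots, which ran from 2.56 to 2.86 in Ad-378 and from 2.12 to 2.39 in Ad-Ctrl. Its difference of 0.25 is small, and its 95% scanner range (-0.15 to 0.65) included 0. The spread over spots (SD 0.056 log2 units in Ad-378 and 0.053 in Ad-Ctrl, n = 10 spots) is that of printing and scanning on 1 array each, not of mice.

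Promoter windows are shown for the cluster because neighbouring genes differed, and for Ugt3a1 as the highest member. Each runs from 250 bases before to 50 bases after a RefSeq gene start (GRCm38.p6), 5′ to 3′ on the gene's strand. Windows are chr3:107969125-107969424 (minus) for Gstm3, chr3:107986371-107986670 (minus) for Gstm2, chr3:108017769-108018068 (minus) for Gstm1, chr3:107895604-107895903 (plus) for Gstm5 and chr15:9279579-9279878 (plus) for Ugt3a1. Capitals mark matches, on either strand, to the antioxidant response core TGACNNNGC, the STAT5 motif TTCNNNGAA, the AhR core TNGCGTG, the TATA box TATAAA and the CCAAT box CCAAT.
Gstm3: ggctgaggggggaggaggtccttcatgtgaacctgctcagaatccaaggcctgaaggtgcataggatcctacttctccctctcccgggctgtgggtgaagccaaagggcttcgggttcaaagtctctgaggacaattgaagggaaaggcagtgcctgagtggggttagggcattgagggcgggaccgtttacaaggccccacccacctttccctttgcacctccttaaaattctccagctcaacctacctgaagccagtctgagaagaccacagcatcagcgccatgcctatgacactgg
Gstm2: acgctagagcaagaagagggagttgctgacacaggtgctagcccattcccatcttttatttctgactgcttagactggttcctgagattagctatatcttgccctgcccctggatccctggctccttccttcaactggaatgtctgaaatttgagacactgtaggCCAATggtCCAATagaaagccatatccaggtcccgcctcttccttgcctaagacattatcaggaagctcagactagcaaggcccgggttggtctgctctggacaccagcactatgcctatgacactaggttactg
Gstm1: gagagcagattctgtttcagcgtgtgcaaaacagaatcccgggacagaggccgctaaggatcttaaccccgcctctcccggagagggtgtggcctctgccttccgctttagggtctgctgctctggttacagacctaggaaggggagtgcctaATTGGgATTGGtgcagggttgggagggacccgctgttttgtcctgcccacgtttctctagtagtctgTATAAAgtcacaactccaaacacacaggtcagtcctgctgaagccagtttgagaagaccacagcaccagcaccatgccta
Gstm5: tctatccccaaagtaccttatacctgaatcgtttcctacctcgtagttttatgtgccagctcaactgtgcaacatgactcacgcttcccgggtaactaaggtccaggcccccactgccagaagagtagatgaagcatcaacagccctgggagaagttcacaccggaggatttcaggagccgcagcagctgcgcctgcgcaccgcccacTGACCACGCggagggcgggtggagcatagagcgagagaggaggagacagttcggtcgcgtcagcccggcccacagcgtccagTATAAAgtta
Ugt3a1: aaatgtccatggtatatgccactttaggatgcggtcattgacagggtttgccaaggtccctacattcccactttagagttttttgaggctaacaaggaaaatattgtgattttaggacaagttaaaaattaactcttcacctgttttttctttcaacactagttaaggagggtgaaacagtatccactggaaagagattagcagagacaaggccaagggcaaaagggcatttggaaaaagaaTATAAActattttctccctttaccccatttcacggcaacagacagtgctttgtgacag

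The antioxidant response core, the sequence Nrf2 binds with small Maf proteins, was found in the Gstm5 window and in none of the 3 windows printed for the lower genes. The Gstm3 window held none of the 5 motifs. The Gstm2 window held a pair of CCAAT boxes, and the Gstm1 window a TATA box with 2 matches to the CCAAT box on the opposite strand. Of the 38 members, 34 had a window, and 4 of those 34 (Gsta3, Gstm5, Gstm7 and Mgst1) held the antioxidant core, against 14.0% of 27025 genes with windows. None of these 4 was 1.5-fold apart between the pools, while over all genes 12% were 1.5-fold lower in Ad-378 and 8.79% higher. So few genes cannot be told apart from those shares. The STAT5 motif was in windows of 4 of the 34 (9.55% of all genes), the AhR core in 1, Gsta2 (5.84%), the TATA box in 7 (15.7%) and the CCAAT box in 18 (41.1%). These matches are descriptions of letters in 300 bases, and response elements of these genes may lie outside them.

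**Figure D2:**
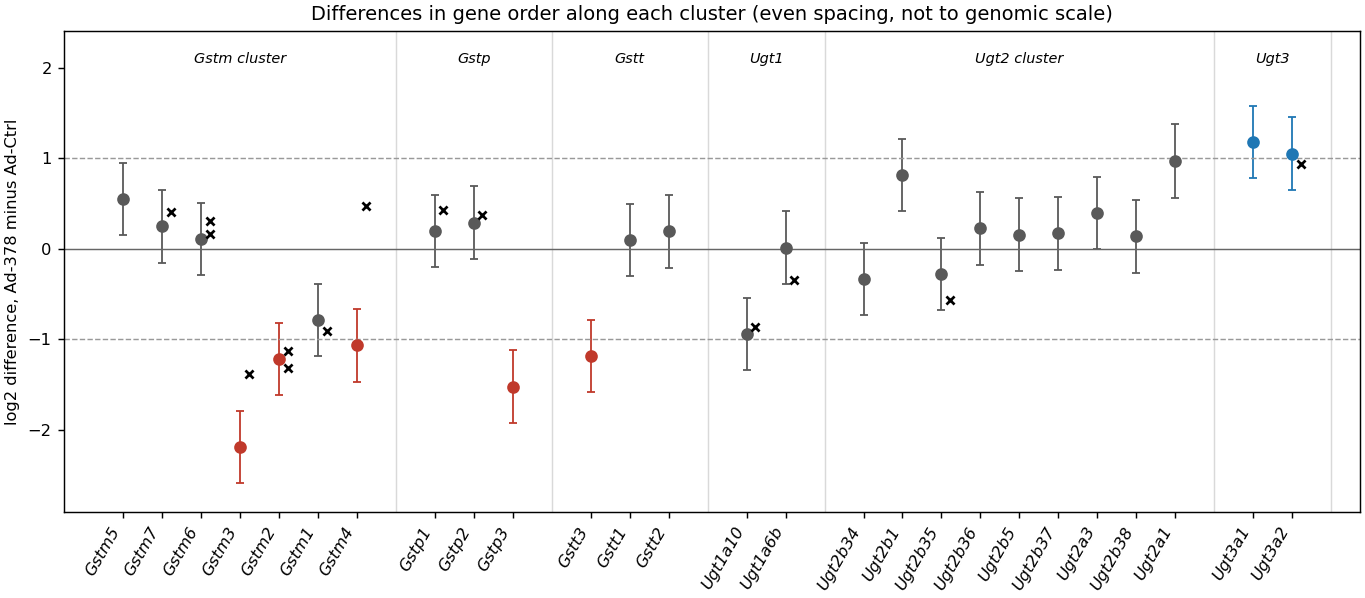
Log2 difference (Ad-378 minus Ad-Ctrl) of genes in reference order along 6 groups of neighbouring genes, evenly spaced. Circles are the brightest probe with a bar of the 95% range from the scanner error, crosses are the other probes well above background in both pools, and dashed lines mark 2-fold. In the Gstm group the brightest probes run from 0.55 to 0.11 in Gstm5, Gstm7 and Gstm6 and from -2.19 to -0.79 in Gstm3, Gstm2, Gstm1 and Gstm4, with the second Gstm4 probe at 0.47.

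The pi and theta classes repeated this split within a cluster. Gstp1 and Gstp2 encode the pi enzymes that are abundant in male mouse liver, and they are near-identical copies whose probes may not tell them apart. Gstp1 had 112 in Ad-378 and 97.3 in Ad-Ctrl (0.20), with its other probe at 0.43, and its sign turned under lowess (-0.01). Gstp2 had 143 in Ad-378 and 117 in Ad-Ctrl (0.29), with its other probe at 0.38. Gstp3, their neighbour on chromosome 19, had 0.923 in Ad-378 and 2.65 in Ad-Ctrl, a difference of -1.52 or 2.87-fold less. Of the theta genes on chromosome 10, Gstt3 had 8.14 in Ad-378 and 18.5 in Ad-Ctrl, a difference of -1.18. Gstt1, which conjugates small halogenated compounds, had 39.9 in Ad-378 and 37.3 in Ad-Ctrl (0.10, and -0.08 under lowess), and Gstt2 had 4.15 in Ad-378 and 3.63 in Ad-Ctrl (0.19). In each of these clusters, then, 1 gene was beyond 2-fold and its measured neighbours were not. Gstt4 was not well above background in either pool.

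The alpha class was lower by less. Gsta4, which clears the lipid peroxidation product 4-hydroxynonenal, was printed in 10 spots that ran from 0.683 to 0.865 in Ad-378 and from 1.17 to 1.38 in Ad-Ctrl. The spots did not overlap, and the 10 spot differences lay between -0.87 and -0.63, around a difference of -0.73. As for Gstm7, that spread is of printing and scanning on 1 array each, not of mice. How often the spots of other probes overlap was not tested. Gsta2 had 10.9 in Ad-378 and 18.4 in Ad-Ctrl (-0.75). It is a near copy of Gsta1, which had no named probe and was not analysed here, so the probe may read both. Gsta3, the main constitutive alpha enzyme of mouse liver, had 80.7 in Ad-378 and 83.1 in Ad-Ctrl (-0.04), with its other probe at -0.01.

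Membrane-bound enzymes were split as well. Mgst1, found in the endoplasmic reticulum and outer mitochondrial membrane, had 99.3 in Ad-378 and 82.0 in Ad-Ctrl (0.28), and its other probe gave 0.30. Mgst3 had 0.332 in Ad-378 and 0.765 in Ad-Ctrl, a difference of -1.20 that its second probe matched to 2 decimals. Mgst2, which can make leukotriene C4, had 0.151 in Ad-378 and 0.298 in Ad-Ctrl (-0.98). Both were dim, and on the deposited series matrix values, which carry no background subtraction, Mgst2 stood at -0.72. After normexp it stood at -0.63. It passed 2-fold under lowess (-1.003) and with the 75th percentile of detected probes (-1.018).

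The zeta, omega and kappa genes were inside 1.5-fold. Gstz1, the maleylacetoacetate isomerase of tyrosine breakdown, had 67.1 in Ad-378 and 49.7 in Ad-Ctrl (0.43). Gsto1, a thiol transferase and dehydroascorbate reductase, had 25.7 in Ad-378 and 21.1 in Ad-Ctrl (0.28), and Gstk1, the kappa enzyme, had 53.1 in Ad-378 and 44.8 in Ad-Ctrl (0.25). The 95% scanner range of the last 2 included 0, and under lowess the differences were 0.24 for Gstz1, 0.13 for Gsto1 and 0.06 for Gstk1. Gsto2 passed the background criterion in Ad-378 alone, dimly at 0.0310 against 0.0179 in Ad-Ctrl. That difference of 0.80 had a scanner error of 0.40. Its direction follows from the criterion, so it is not read as a result.

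The UDP-glucuronosyltransferases differed less, apart from the Ugt3 pair. Ugt3a1 and Ugt3a2 are neighbours on chromosome 15, and in humans their counterparts use other UDP sugars in place of UDP-glucuronate. Ugt3a1 had 4.78 in Ad-378 and 2.11 in Ad-Ctrl, a difference of 1.18 or 2.27-fold more. Ugt3a2 had 56.2 in Ad-378 and 27.1 in Ad-Ctrl, a difference of 1.05, and 4.39 in Ad-378 against 2.29 in Ad-Ctrl on its other probe (0.94). Ugt3a2 thus sits at the threshold. It lay just inside 2-fold with the mean over probes (0.995), the matrix values (0.998) and normexp (0.993), and at 0.89 and 0.87 under quantile and lowess normalization.

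The Ugt2 cluster on chromosome 5 makes the enzymes that glucuronidate steroids and bile acids, and most of its members hardly differed. Ugt2b5 had 78.5 in Ad-378 and 70.3 in Ad-Ctrl (0.16), Ugt2b36 had 49.7 in Ad-378 and 42.5 in Ad-Ctrl (0.23), Ugt2b37 had 42.7 in Ad-378 and 38.0 in Ad-Ctrl (0.17) and Ugt2b38 had 73.8 in Ad-378 and 67.1 in Ad-Ctrl (0.14). The 95% scanner range of each of these included 0, and all but Ugt2b36 turned sign under lowess. Ugt2b34, with 43.6 in Ad-378 and 54.9 in Ad-Ctrl (-0.33), and Ugt2b35, with 14.0 in Ad-378 and 16.9 in Ad-Ctrl (-0.28, and -0.56 on its other probe), were lower, though the 95% scanner ranges of both brightest probes included 0. Ugt2a3 had 25.1 in Ad-378 and 19.1 in Ad-Ctrl (0.39), with a range that also included 0.

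Within that cluster, 2 genes stood higher. Ugt2b1 had 22.2 in Ad-378 and 12.6 in Ad-Ctrl, a difference of 0.82 (scanner error 0.20) or 1.76-fold. Ugt2a1, known from the olfactory epithelium, had 0.392 in Ad-378 and 0.200 in Ad-Ctrl, a difference of 0.97. Ugt2a1 is dim, and its difference shrank to 0.75 with the matrix values and 0.72 with the normexp background correction.

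The Ugt1 genes share their last exons and differ in the first, so a probe placed in the shared part reads the whole locus. Ugt1a10 was the one Ugt1 gene with 2 probes lower in Ad-378, with 4.63 in Ad-378 and 8.89 in Ad-Ctrl on the brighter (-0.94) and 0.192 in Ad-378 and 0.349 in Ad-Ctrl on the other (-0.87). It passed 2-fold under quantile normalization (-1.01) and lowess (-1.05). Ugt1a6b, of the pair that handles planar phenols, had 131 in Ad-378 and 129 in Ad-Ctrl at its brighter probe (0.01) and 3.38 in Ad-378 and 4.29 in Ad-Ctrl at the other (-0.34). Ugt1a6a was not well above background in either pool. Ugt1a1, the bilirubin enzyme, and Ugt1a2, Ugt1a5, Ugt1a7c, Ugt1a8, Ugt1a9 and Ugt2a2 had no named probe and were not analysed here, nor were the pseudogenes Gstm2-ps1 and Gstp-ps.

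Over the 15 members with several probes above background, 13 had probes of 1 sign and 2 did not (Gstm4 and Ugt1a6b). The median distance between the extreme probes of a gene was 0.16 log2 units, and for 13 of the 15 it was under 0.5. Gstm3 and Gstm4 were the 2 exceptions.

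**Figure D3:**
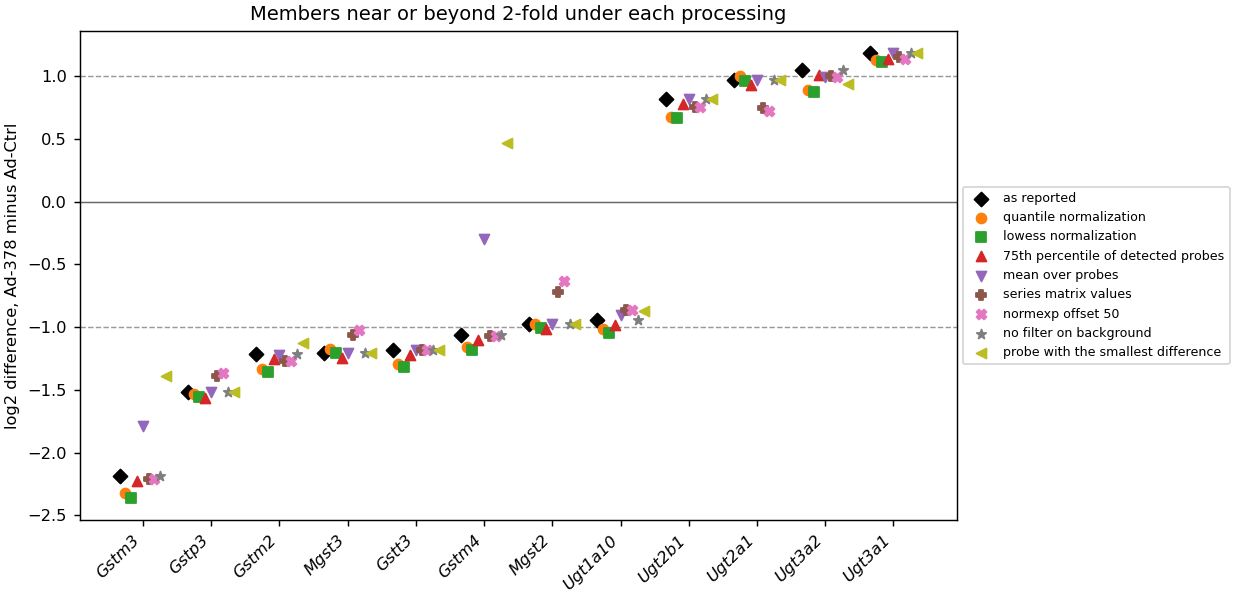
Log2 difference (Ad-378 minus Ad-Ctrl) of the 12 members with a reported difference of at least 0.82 in either direction, under the reported processing (black diamonds) and 8 alternatives. Dashed lines mark 2-fold. Gstm3, Gstp3, Gstm2, Mgst3 and Gstt3 stay below -1 and Ugt3a1 above 1 throughout, while Gstm4 runs from -1.18 to 0.47 and Ugt3a2 from 0.87 to 1.05. Gstp3, Gstt3 and Ugt3a1 each rest on 1 probe. Their values could not differ with the mean over probes or the probe of smallest difference, and dropping the background filter changed no member.

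Genes of glutathione and UDP-glucuronate supply and turnover were read beside all genes. Of all genes, 4.51% were at least 2-fold lower in Ad-378 and 7.35% were 2-fold apart. Of 14 measured genes of glutathione supply and recycling, 1 was lower in Ad-378 by 2-fold or more and 0 were higher by as much, with a median of 0.06. That 1 was Chac1, which breaks glutathione down, with 0.483 in Ad-378 and 2.94 in Ad-Ctrl (-2.60). Of 6 genes of UDP-glucuronate supply and of UDP sugar or glucuronide hydrolysis, 0 were 2-fold apart. Their median was -0.16, and it was -0.26 under quantile normalization and -0.28 under lowess. Ugdh, which makes UDP-glucuronate, stood at -0.31, Ugp2, which makes UDP-glucose, at -0.29, and Nudt14, which hydrolyses UDP sugars, at 0.25. Gusb, the lysosomal enzyme that removes glucuronic acid, had 2.60 in Ad-378 and 4.73 in Ad-Ctrl (-0.86).

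Of 8 transporters and partners that move conjugates out of cells, 6 had a negative difference and 0 were 2-fold apart, with a median of -0.42. Of all genes, 46.1% had a negative difference and 7.35% were 2-fold apart. Abcc4, a basolateral exporter, stood at -0.67, Abcc5 at -0.71 (its 3 probes between -1.15 and -0.0001) and Abcc1 at -0.63. The exporter gene Abcg2 went the other way, with 19.4 in Ad-378 and 9.82 in Ad-Ctrl (0.98).

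Of 19 regulators of these genes, 0 were at least 2-fold apart in either direction, against 7.35% of all genes. Their median of 0.05 turned sign with the setting (-0.04 to 0.10). Ppara, a receptor for fatty acids, had 22.7 in Ad-378 and 12.5 in Ad-Ctrl (0.86), the liver factor Cebpa stood at 0.80, and Ahr, the gene of AhR, at -0.70, with its other probe lower still. With the mean over probes, 1 regulator was 2-fold higher and 1 2-fold lower. Named for their role and outside the naming rule, Nfe2l2 (the gene of Nrf2) stood at -0.23, its inhibitor Keap1 at 0.25, Nr1i2 (PXR) at -0.25 and Nr1i3 (CAR) at 0.34. Messenger levels of these factors do not measure their activity.

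Other targets of these regulators were set beside the family, and the share of all genes at least 2-fold lower is 4.51% and at least 2-fold higher 2.83%. Of 21 other Nrf2 targets, 2 were at least 2-fold lower in Ad-378, Cbr3 (-3.16) and Nqo1 (-1.51), and 0 at least 2-fold higher, with a median of -0.24. Under lowess 3 were lower and the median was -0.38. Of 15 other CAR and PXR targets, 2 were at least 2-fold lower, Cyp2c55 (-1.31) and Cyp2b9 (-1.20), and 0 higher, with a median of -0.08. The median was -0.27 under quantile normalization and -0.29 under lowess, with 3 lower in each. Of 7 AhR targets, 1 was at least 2-fold lower, again Nqo1, with a median of -0.67 that was -0.16 after normexp and -0.17 on the matrix values. All 3 medians kept a negative sign under the 7 alternatives at which they were computed. The lists share 6 genes and were chosen with earlier results of these data known.

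**Figure D4:**
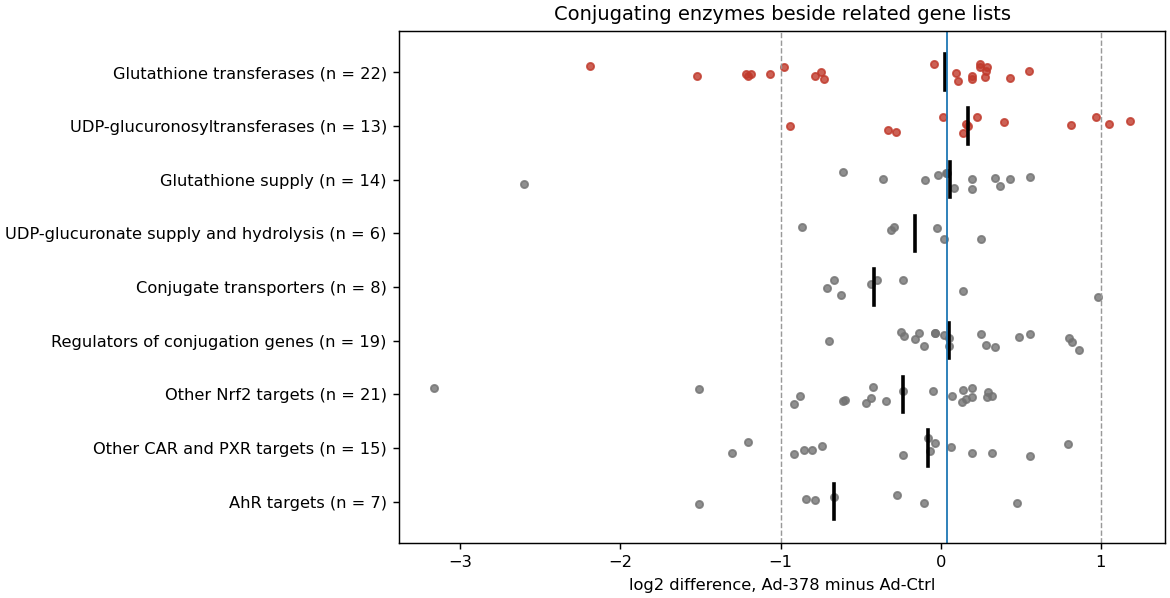
Log2 differences (Ad-378 minus Ad-Ctrl) of glutathione transferases and UDP-glucuronosyltransferases (red) and of 7 related gene lists (grey), 1 point a gene, with vertical jitter. Black bars are medians, the blue line is the median of all 14288 genes (0.04), and dashed lines mark 2-fold. The glutathione transferases show 10 points at or below -0.73 and none above 0.55, and their median of 0.03 changes sign under quantile and lowess normalization and with the 75th percentile of detected probes.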

How the data were processed

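The labels describe total liver RNA, 1 pool per group, labelled with Cy3. The deposited scanner files hold spot intensities on a linear scale. Per the file headers they come from Feature Extraction 11.0.1.1, whereas the submitters' processing notes name 9.1, and the processed signal has had background subtracted and spatial trend removed on each array separately, without scaling one array to the other. Deposited 0 or 1 flags for background, saturation and outliers are other values. The deposited series matrix intensities equal the raw median signal in 100% of spots, with array medians of 95 in Ad-378 and 103 in Ad-Ctrl. The labels' extraction protocol names a blood RNA kit with globin removal although the tissue is liver.

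Control spots (1377) and gene spots marked as outliers (123 per array) were left out, spots of a probe were averaged on the log2 scale, and the 75th percentile was taken over 39401 probes. A probe was well above background where most of its spots were. Transcript identifiers were matched, without versions, to a RefSeq table of GRCm38.p6, naming 27219 probes. The files name build mm9, and the coordinates given are those of the promoter windows in the GRCm38.p6 table. The scanner error is the root sum of squares of both relative errors, whose median was 10.0% on each array. The number of arrays limits the precision.

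All members with a value are named. From each related list the genes at 2-fold, or otherwise up to 4 with the largest differences, are named, except 1 gene that is not reported here. The members and lists were chosen with earlier results of these data known. Alternatives were quantile and lowess (span 0.3) normalization, the 75th percentile of detected probes, thresholds of 1.5-fold and 3-fold, the deposited matrix values, normexp (offset 50, median signal), a mean taken over probes, and no background filter. For normexp, spots marked as background outliers took the array's median background, a step chosen after a local background of 6305 had distorted the fit. The steps were tested on simulated data. Promoter sequences are from RefSeq. Python 3.11.15, numpy 2.4.6, pandas 2.3.3, statsmodels 0.14.6 and limma 3.58.1 were used.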

Additional observations from a re-analysis of the deposited data

How the results depend on the processing

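No paired analysis was possible because there was 1 pool in a group, and for the same reason none could be left out. The probe with the smallest difference of each gene was added as an alternative after seeing the data. The glutathione transferases at least 2-fold lower numbered 6 as reported and 5 to 7 under the alternatives at that threshold, with 0 higher in each, and the numbers lower were 10 at 1.5-fold and 1 (Gstm3) at 3-fold. Their median was 0.03 as reported, -0.12 under quantile normalization and -0.16 under lowess. The UDP-glucuronosyltransferases at least 2-fold apart numbered 2 as reported. They were 3 under quantile normalization (2 higher, 1 lower), 2 under lowess (1 higher, 1 lower), and 1, higher, with the mean over probes, the matrix values, normexp and the probe with the smallest difference. They were 5 at 1.5-fold (4 higher, 1 lower) and 0 at 3-fold. Their median was 0.17 as reported, 0.0054 under quantile normalization and -0.0069 under lowess. The threshold changes these counts by construction. The cause of the others was not tested. Of all genes, 405 stood higher by 2-fold or more and 645 lower as reported, 222 and 394 on the matrix values, 200 and 353 after normexp, and 1059 and 1164 of 20652 genes with no filter on background. Of 280 single values of the 35 members under 8 alternatives, 276 lay inside the reported value's 95% scanner range. The exceptions were Gstm3 (-1.79 with the mean over probes, -1.39 with the probe of smallest difference) and Gstm4 (-0.30 with the mean, and 0.47, the opposite sign, with the probe of smallest difference). That range is wide, reaching about 0.40 log2 units to each side, so lying in it does not show a stable value. Some of the values could also not differ. A member with 1 probe above background keeps its value under the mean over probes and the probe of smallest difference. Dropping the filter on background changed no member's value. For 7 members the sign turned in at least 1 setting. Gsto2, Mgst2, Mgst3 and Ugt2a1 are limited by their low signal over background.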
